A study of Mus musculus with 43 samples.

Results

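The Hox genes are homeobox transcription factors that lie side by side in 4 clusters, HoxA on chromosome 6, HoxB on chromosome 11, HoxC on chromosome 15 and HoxD on chromosome 2. A list of 38 Hox genes was taken by name, 10 in HoxA, 10 in HoxB, 9 in HoxC and 9 in HoxD, and all 38 were found among the 20807 protein-coding genes that the annotation places on the autosomes. The question addressed here is where repressive histone methylation and the H3K9 methyltransferase Setdb1 were called over these genes in each of 3 kinds of mouse embryonic fibroblasts (MEFs).

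Along each cluster the order of the genes follows the order in which they act from head to tail, so that low-numbered genes pattern anterior structures such as the hindbrain and high-numbered genes pattern posterior structures such as the digits, genitalia and tail. In this text the end of a cluster with the low numbers is called anterior and the other end posterior. Where a Hox gene is silent, Polycomb proteins keep it so and mark the chromatin with tri-methylation of lysine 27 of histone H3 (H3K27me3), and fibroblasts are known to keep the on and off pattern of the body site they came from. H3K9me2 and H3K9me3, which mark other silent regions such as gene-poor chromatin and repeats, are placed by Setdb1 and related enzymes.

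All MEFs came from E13.5 embryos of Mus musculus domesticus dams and castaneus (CAST) sires, which the study calls 129/CAST F1. They were transduced with a retrovirus for a hairpin. Female MEFs were Setdb1+/+ Xist-deltaA/+ with the Nonsilencing hairpin, Setdb1-depleted MEFs were female Setdb1+/gt Xist-deltaA/+ with shSetdb1, and male MEFs were Setdb1+/+ X/Y with the Nonsilencing hairpin. The Xist-deltaA allele makes the CAST X the inactive one in female cells, and the gt allele is a gene trap of Setdb1, so the Setdb1-depleted MEFs combine a heterozygous trap with a hairpin. The whole cell extract, the control for the Setdb1 peaks, was 1 library for each kind of MEFs. Each target was profiled in 3 female, 2 Setdb1-depleted and 3 male libraries, but the deposited peak lists were called on the pooled libraries. Each value below therefore comes from 1 list, has no error between replicates, and differences between lists could not be tested.

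The deposited data were 9 lists of broad histone peaks and 3 lists of narrow Setdb1 peaks on mm10, the GRCm38 build. Positions of histone peaks moved in steps of 5 kb, no peak was narrower than 10 kb, and no score was given for a histone peak, so an edge is known to no better than a step. The autosomal H3K27me3 peaks covered 257 Mb in the female list, 199 Mb in the Setdb1-depleted list and 231 Mb in the male list. The H3 control pools recovered from the files had 61.6% (Setdb1-depleted) and 71.8% (male) of the depth of the female pool, whereas the files do not show how deeply the marks themselves were sequenced. The header of the Setdb1-depleted Setdb1 list gives the hairpin of these gene-trap cells as Nons, against the sample labels, so a direction drawn from the Setdb1 lists rests on the labels. The titles, source and tissue labels give MEFs, whereas the extraction text of the labels speaks of NSCs, and the cells are called MEFs here. The starts of 20.4%, 18.1% and 18.4% of all genes lay in H3K27me3 peaks of the female, Setdb1-depleted and male lists. Beside these shares, no start of 12 fibroblast marker genes such as Col1a1 and Prrx1 lay in such a peak in any list, whereas those of all 4 neural markers did in each (Sox2, Pax6, Neurod1 and Neurog2). Of 4 epithelial markers, Epcam and Cdh1 had their start in a peak in the female and Setdb1-depleted lists and Epcam in the male list. Of 4 endothelial markers Kdr did in each list, and none of the 3 blood markers did. A start outside a peak is not evidence that a gene is expressed, so these counts do not establish the cell type.

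The sequences that the results refer to are shown first. Hoxa2 and Hoxa5 are shown because they lie on either side of the place where the H3K27me3 domain of HoxA began, which differed between lists. Both stretches are the 250 bases before the RefSeq start of the gene on GRCm38.p6, minus strand, with each CG dinucleotide in capitals. The Hoxa2 window is chr6:52164832-52165081 and the Hoxa5 window is chr6:52204588-52204837.
Hoxa2: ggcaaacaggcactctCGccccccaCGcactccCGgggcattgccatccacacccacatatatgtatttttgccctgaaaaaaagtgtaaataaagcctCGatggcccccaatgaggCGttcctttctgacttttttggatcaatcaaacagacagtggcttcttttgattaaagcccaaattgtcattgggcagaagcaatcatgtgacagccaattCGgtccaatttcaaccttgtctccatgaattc
Hoxa5: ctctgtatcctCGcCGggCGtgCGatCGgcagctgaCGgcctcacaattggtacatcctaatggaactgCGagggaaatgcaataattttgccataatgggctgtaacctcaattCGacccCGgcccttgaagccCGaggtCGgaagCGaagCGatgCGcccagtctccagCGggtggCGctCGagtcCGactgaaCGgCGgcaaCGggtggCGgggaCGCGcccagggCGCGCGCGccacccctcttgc

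Promoter sequences could be matched for 22 of the 38 genes, and the median of their windows was 12.5 CG against 6 over all autosomal windows of the table. The Hoxa2 window held 6 CG, a number that 50.8% of all windows reached or passed. The Hoxa5 window held 28, which 7.84% of all windows reached. Hoxa13 stood highest with 35 CG (3.08% of all windows), and the upstream of the 2 Hoxd11 windows stood lowest with 2. Every matched window other than that of Hoxa2 lay wholly inside H3K27me3 peaks in all 3 lists. Only 32.4% of the Hoxa2 window did so in the female list, and none of it in the other lists. Hoxa4, whose start lay outside the male peaks, had no matched window. The Hoxa3 window lies at a start far from its coding part.

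The clusters also hold microRNA genes that repress Hox transcripts. Their mature sequences from RefSeq (GRCm38.p6) are shown with the seed, bases 2 to 8, in capitals, because the genes for these few share seeds across clusters and all lay under H3K27me3. The first pair comes from Mir10a in HoxB and Mir10b in HoxD. The second pair comes from Mir196a-1 in HoxB and Mir196a-2 in HoxC, which give the same mature sequence, and from Mir196b in HoxA.
miR-10a-5p: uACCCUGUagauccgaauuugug
miR-10b-5p: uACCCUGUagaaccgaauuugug
miR-196a-5p: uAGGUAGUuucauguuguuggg
miR-196b-5p: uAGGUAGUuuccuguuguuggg

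Nearly all Hox genes lay in H3K27me3 peaks in all 3 kinds of MEFs. Expression was not scored here, so a gene inside a broad peak is not thereby shown to be silent. At least 50% of the annotated span was in peaks for 37 of 38 genes in the female list, where 13.8% of all autosomal protein-coding genes reached that share. The count was 37 of 38 in the Setdb1-depleted list (11.9% of all genes) and 35 of 38 in the male list (12.8% of all genes). In all 3 lists together, 35 of 38 genes reached it, against 8.65% of all genes. The same 35 genes had 100% of their span in peaks in every list, which 5.92% of all genes had. A long span is harder to cover wholly, and the genes were not matched by length. In each list 1 H3K27me3 peak overlapped each cluster, so the genes of a cluster share a peak and are not independent counts. The starts of 37, 37 and 36 of the 38 lay in peaks of the female, Setdb1-depleted and male lists. The shares of all genes were 20.4%, 18.1% and 18.4%. The median gene of the 38 was covered over 100% of its span in each list and the median of all genes over 0%.

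The H3K9 marks were not called over any Hox gene. No gene of the 38 reached the 50% share for H3K9me3 in the female (2.85% of all genes), Setdb1-depleted (2.53%) or male list (2.88%). The count was also 0 of 38 for H3K9me2 in the female (0.971%), Setdb1-depleted (0.673%) and male list (1.12%). At these background shares few of 38 genes would be covered in any case. No single base of a listed Hox gene lay in a peak of either H3K9 mark.

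**Figure D1:**
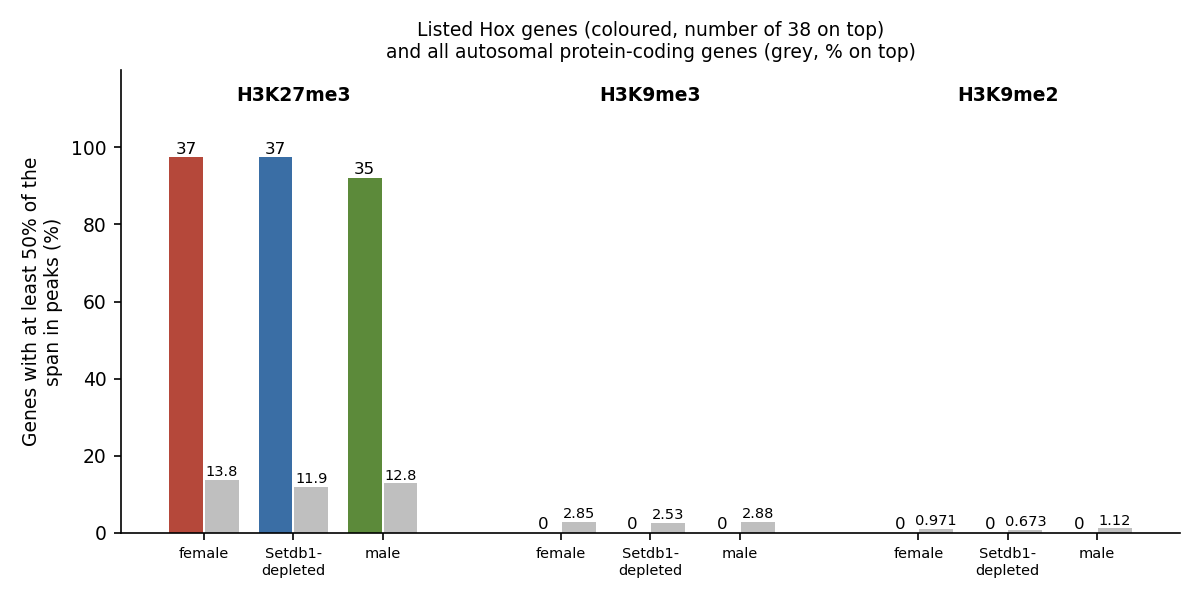
Bars give the percentage of genes with at least 50% of their span in peaks, in colour for the 38 Hox genes (number of genes on top) and in grey for all 20807 autosomal protein-coding genes (percentage on top), for each mark and list. Hox bars stand at 37, 37 and 35 genes for H3K27me3 and at 0 for both H3K9 marks.

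Hoxa2, Hoxa3 and Hoxa4, neighbours at the anterior end of HoxA, were the only listed genes with less than full coverage in some list. Hoxa2, which sets the identity of the hindbrain and of the pharyngeal arch that forms the middle ear, was covered over 0% of its span in all 3 lists. Hoxa3, needed for the thymus and parathyroid, was covered over 100% in the female, 64.0% in the Setdb1-depleted and 30.1% in the male list. Hoxa4 was covered over 100% in the female and Setdb1-depleted lists and 0% in the male list. From female to Setdb1-depleted to male, the covered part of this stretch was thus shorter in each list.

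The annotated span of Hoxa3 is 44.3 kb long because a distant start is included, and it overlaps Hoxa4, Hoxa5 and Hoxa6, so peaks over those genes count for Hoxa3 too. Its coding part, chr6:52169943-52172649, lay wholly in a peak in the female list and wholly outside in the other 2. The start of Hoxa3 as annotated lay in a peak in all 3 lists. The coding part of Hoxa4 lay wholly in a peak in the female and Setdb1-depleted lists and outside in the male list.

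**Figure D2:**
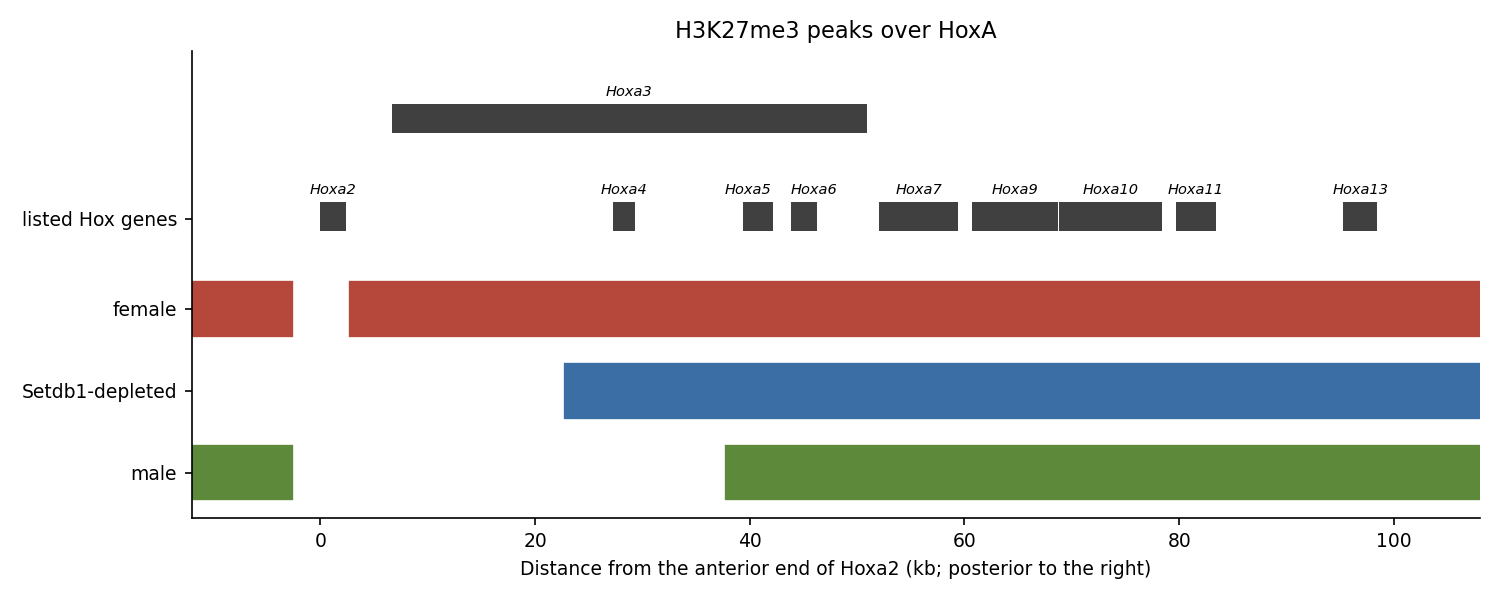
Bars show the H3K27me3 peaks of each list along HoxA, with the listed genes as dark boxes above; the x axis is the distance in kb from the anterior end of Hoxa2. The domain begins between Hoxa2 and Hoxa3 in the female list, inside the Hoxa3 span before Hoxa4 in the Setdb1-depleted list, and between Hoxa4 and Hoxa5 in the male list.

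The HoxA domain spanned 52165001 to 52355000 on chromosome 6 in the female list (190 kb), 52185001 to 52340000 in the Setdb1-depleted list (155 kb) and 52200001 to 52355000 in the male list (155 kb). Its anterior edge lay 0.17 kb past Hoxa2 in the female list, 4.67 kb before Hoxa4 in the Setdb1-depleted list and 1.75 kb before Hoxa5 in the male list. The female edge is within 1 step of the caller of Hoxa2, so whether it includes the gene is not resolved. The Setdb1-depleted edge is likewise within 1 step of Hoxa4, and the male edge within 1 step of Hoxa5. Whether those edges leave these genes wholly inside is not resolved either. The anterior edges of the other lists lay 20 kb and 35 kb further in, which is more than a step.

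Of the 98.5 kb from Hoxa2 to Hoxa13, peaks covered 97.4% in the female, 77.1% in the Setdb1-depleted and 61.8% in the male list. A separate H3K27me3 peak stopped 2.42 kb short of Hoxa2 in the female list (65 kb wide) and the male list (55 kb wide), whereas the nearest one on that side in the Setdb1-depleted list was 72.4 kb away. Hoxa2 therefore lay in a gap between peaks in the female list. The gap was 1 step of 5 kb wide.

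The other 7 HoxA genes, Hoxa5 to Hoxa13, were fully covered in all 3 lists. Hoxa5 acts in the neck, lung and upper trunk, and it was the gene nearest to the edge of the male domain. Hoxa13, the gene for digits and the urogenital tract, lay deepest, 92.7 kb from the nearer edge in the female, 72.7 kb in the Setdb1-depleted and 57.7 kb in the male list. Hottip, a long noncoding RNA at the posterior end of HoxA, and Mir196b were fully covered in all lists.

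Past Hoxa13 the domain ran on over Evx1, an even-skipped homeobox gene 52.6 kb from the cluster, which was fully covered in all lists. It ended 94.1 kb past Hoxa13 in the female and male lists and 79.1 kb past it in the Setdb1-depleted list. In the Setdb1-depleted list 2 further peaks of 15 kb each followed that end directly, so that coverage there ran on past the end of the other domains. Hibadh, the next gene on that side, was covered over 0% in each list. On the anterior side Skap2 was covered over 8.09% of its span in each list.

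HoxB had the same domain in all 3 lists, 96115001 to 96390000 on chromosome 11 (275 kb). All 10 genes were fully covered. Of the 7293 autosomal H3K27me3 peaks of the female list, 20.9% had both edges at the same place in the Setdb1-depleted list and 25.2% in the male list, and the corresponding shares of the 39 peaks at least 200 kb wide were 20.5% and 28.2%.

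Hoxb1, which specifies facial motor neurons, lay nearest to an edge of the HoxB domain, 21.7 kb inside. Hoxb2 lay 36.0 kb and Hoxb3 42.1 kb inside. Hoxb4 (68.4 kb), a regulator of blood stem cells, was followed by Hoxb5 (83.9 kb), Hoxb6 (88.4 kb), Hoxb7 (99.8 kb) and Hoxb8 (105 kb). Hoxb9 lay deepest at 113 kb, and Hoxb13, a gene of the tail and prostate, lay 79.3 kb inside at the far end.

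The posterior part of the HoxB domain took in Ttll6, a tubulin glutamylase gene 28.9 kb from the cluster, which was fully covered in all lists. A peak that began directly at the end of the domain covered Calcoco2 fully in the female and male lists, whereas Calcoco2 was covered over 0% in the Setdb1-depleted list. On the anterior side Skap1 was covered over 76.5%, 74.8% and 74.8% of its span in the female, Setdb1-depleted and male lists. Mir10a and Mir196a-1 were fully covered in each.

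HoxC carried the widest Hox domain, 102725001 to 103155000 on chromosome 15 (430 kb) in the female and male lists. It was the widest of 6745 autosomal H3K27me3 peaks in the male list and ranked 2 of 7293 in the female list. In the Setdb1-depleted list the domain ended at 103040000 (315 kb), 3.15 kb past Hoxc4, and ranked 2 of 6259. The median autosomal H3K27me3 peak was 25 kb wide in every list.

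All 9 HoxC genes, Hoxc4, Hoxc5, Hoxc6, Hoxc8, Hoxc9, Hoxc10, Hoxc11, Hoxc12 and Hoxc13, were fully covered in every list. In the stretch past Hoxc4 the Setdb1-depleted list had 3 separate peaks of 20, 35 and 45 kb up to the place where the other domains ended. Within the 430 kb of the female domain it thus covered 415 kb. The difference was a gap of 10 kb and one of 5 kb, 1 or 2 steps of the caller, and no listed gene lay in either.

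Hoxc4 was therefore 118 kb from the edge in the female and male lists and 3.15 kb in the Setdb1-depleted list. Hoxc12 lay deepest in the female and male lists, at 212 kb. Hoxc13, the gene for hair and nails, lay deepest in the Setdb1-depleted list, at 111 kb. The span of Hoxc5 is annotated from a distant start and is 49.99 kb long, so it overlaps its neighbours. Hotair, a long noncoding RNA transcribed from HoxC, Mir196a-2 and Mir615 were fully covered in all lists. Outside the cluster, Calcoco1 was covered over 0% and Smug1, a DNA repair gene, over 27.6% in all 3 lists.

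HoxD had a domain of 255 kb in the female list (74575001 to 74830000 on chromosome 2), 195 kb in the Setdb1-depleted list (74630001 to 74825000) and 175 kb in the male list (74625001 to 74800000). All 9 genes, Hoxd1, Hoxd3, Hoxd4, Hoxd8, Hoxd9, Hoxd10, Hoxd11, Hoxd12 and Hoxd13, were fully covered in each. Hoxd1, a gene of pain-sensing neurons, lay 64.9 kb, 59.9 kb and 34.9 kb from the anterior edge in the female, Setdb1-depleted and male lists. Hoxd13, the other main gene for digits, lay 93.3 kb, 38.3 kb and 43.3 kb from the posterior edge in the same order.

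On the posterior side the male domain was continued without a gap by a peak of 45 kb, and the Setdb1-depleted list had 2 adjoining peaks of 15 kb after a gap of 20 kb. Within the 255 kb of the female domain, peaks thus covered 225 kb in the Setdb1-depleted list and 220 kb in the male list. Evx2, next to Hoxd13 at 8.75 kb, was fully covered in all lists, and Mir10b was too. Lnpk, the next gene beyond it, was covered over 7.50% of its span in the female list and 0% in the others. Mtx2, on the anterior side, was covered over 7.98% in the female list and 0% in the others.

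Beyond Mtx2 lies a gene desert that holds enhancers of Hoxd genes. In the female list a peak 485 kb wide, the widest autosomal H3K27me3 peak of that list, began 135 kb from Hoxd1. Within the extent of this peak, the Setdb1-depleted list held 5 peaks of 45, 190, 45, 50 and 40 kb, of which the 190 kb peak and the 45 kb peak after it adjoined without a gap. They covered 370 kb of the 485 kb. In the male list no peak other than the domain itself lay within 500 kb of Hoxd1 on that side, and 1 peak of 60 kb at the far end covered 55 kb of the 485 kb. Of the first 500 kb past Hoxd1, in which the wide female peak does not end, H3K27me3 peaks, the overhang of the domain included, covered 430 kb in the female, 340 kb in the Setdb1-depleted and 34.9 kb in the male list. The part of depth and of the spread between embryos in this difference was not tested.

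**Figure D3:**
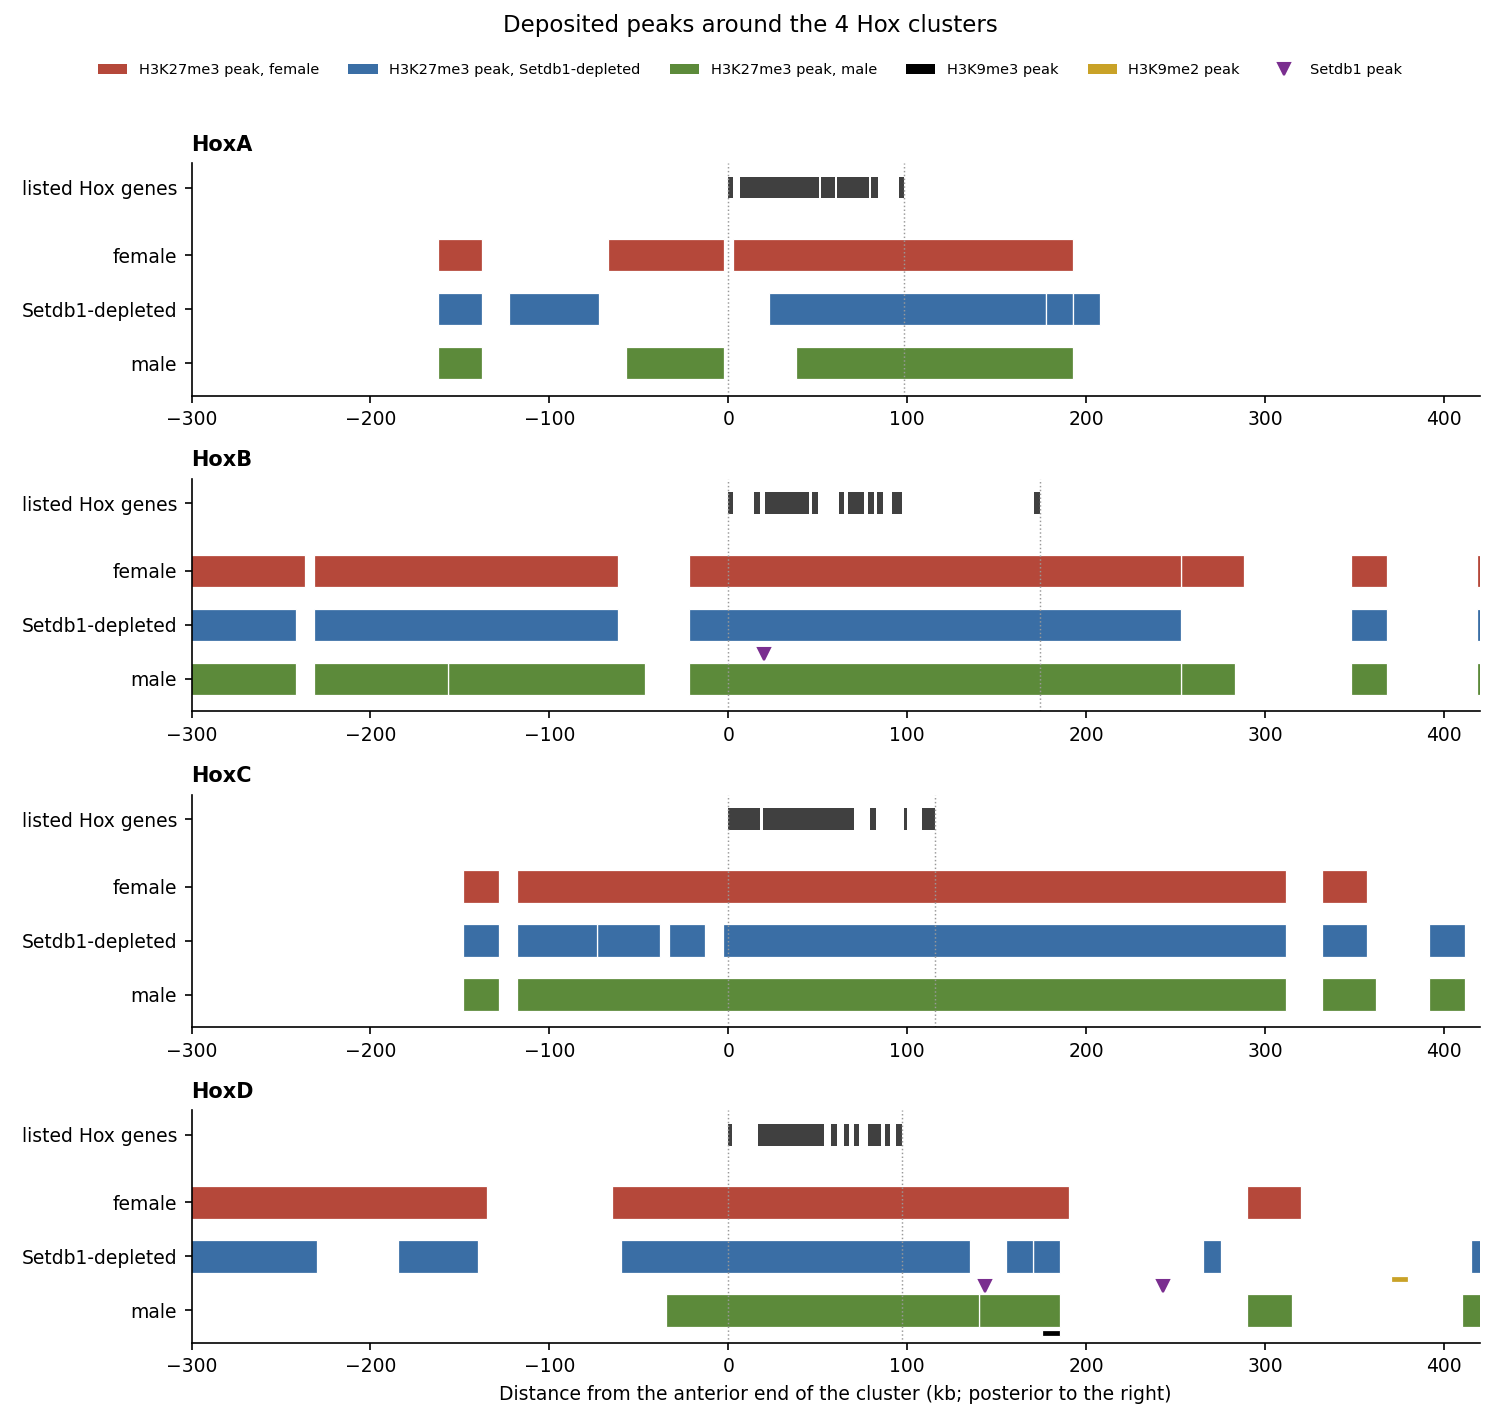
Bars show the deposited peaks of each list around the 4 clusters, with listed Hox genes as dark boxes; the x axis is the distance in kb from the anterior end of the cluster, with dotted lines at both ends. HoxB has the same domain in all lists, HoxC is split past its anterior end in the Setdb1-depleted list, and the wide anterior peak beyond HoxD is absent from the plotted part of the male list.

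The equivalent genes of different clusters (paralogues) differed from one another only at the anterior end. Of the 4 genes with number 4, all were fully covered in the female and Setdb1-depleted lists and 3 in the male list, where Hoxa4 was the exception. Of the 3 genes with number 3, Hoxb3 and Hoxd3 were fully covered in all lists and Hoxa3 in the female list alone. Of the 2 listed genes with number 2, Hoxb2 was fully covered in all lists and Hoxa2 in none. All listed genes with number 1 and with numbers 5 to 13 were fully covered in every list, including all 4 of number 9 and all 4 of number 13.

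Taking the 4 domains together, their widths summed to 1150 kb in the female, 940 kb in the Setdb1-depleted and 1035 kb in the male list. The latter sums are 81.7% and 90.0% of the female sum. Over all autosomal H3K27me3 peaks the covered length was 77.2% and 90.0% of that of the female list. When all peaks inside the widest extent of the 4 domains were counted, the Setdb1-depleted list covered 1085 kb (94.3%) and the male list 1080 kb (93.9%). That extent is the same as the female domains, so the female list covers it wholly by construction and the shares of the other lists could only be equal or lower.

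By gene, no listed Hox gene was covered over at least 50% of its span in the female list and not in the Setdb1-depleted list, where 3.82% of all genes were (0 of 38). Hoxa3 and Hoxa4 were so covered in the female and not in the male list (2 of 38), where 3.38% of all genes were. Only genes covered in the female list could enter these counts, which were 37 of the 38 Hox genes but 2879 of all 20807 genes. Of those 2879 genes, 794 were not so covered in the Setdb1-depleted list and 704 not in the male list. The shares of all genes are thus low by construction, and the difference from the Hox genes was not tested.

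**Figure D4:**
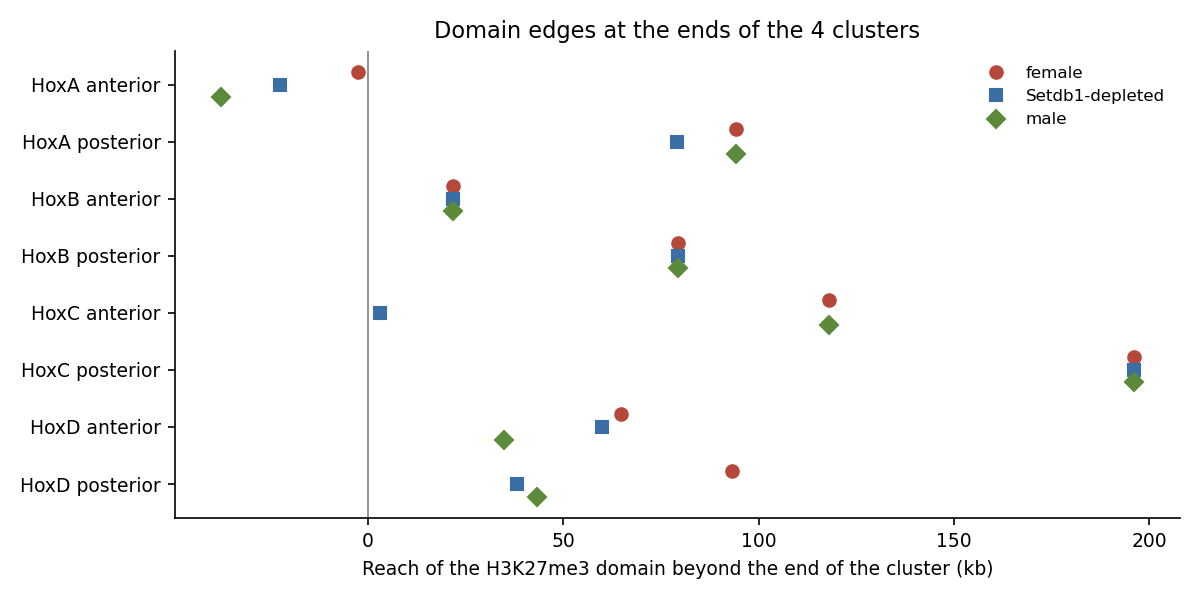
Points give how far the H3K27me3 domain reaches past each end of the cluster in kb for the 3 lists; negative values mean that the edge lies inside the cluster. The edges coincide at both ends of HoxB and at the posterior end of HoxC, and lie furthest apart at the anterior end of HoxC, where the Setdb1-depleted edge is at 3.15 kb and the others at 118 kb.

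Total H3 reads, the control against which the marks were called, were slightly denser over the Hox domains than over the median autosomal H3K27me3 peak of the same list. The log2 difference in reads per kb ranged from 0.05 (HoxB, Setdb1-depleted) to 0.15 (HoxC, male). Its 95% counting interval lay above 0 for all 4 domains in all 3 lists, and this interval covers counting error only. The domains stood above 65.4% to 88.4% of all peaks. Between pools, the scaled log2 H3 level of a female domain moved by -0.03 to 0.08, which lies inside the range from the 5th to the 95th percentile of all peaks.

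**Figure D5:**
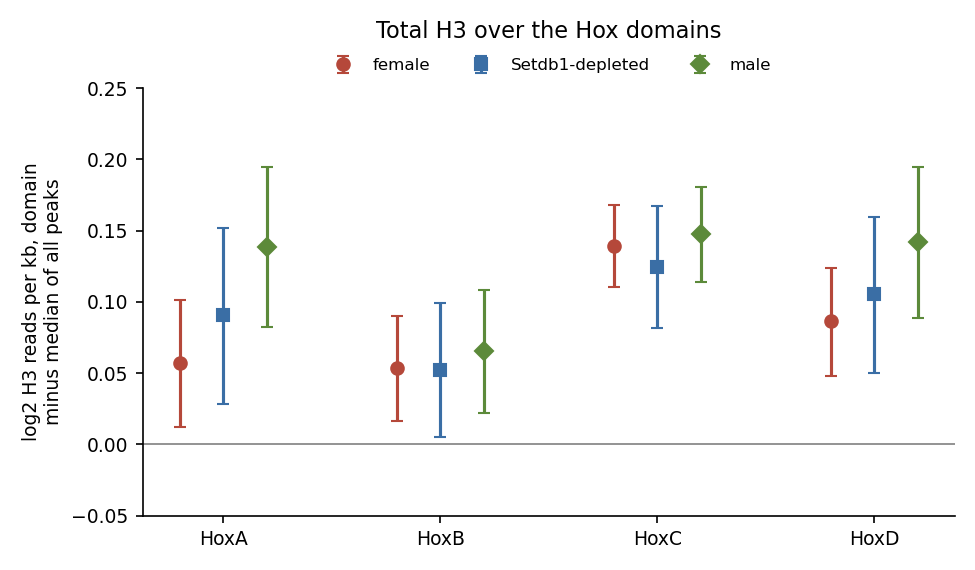
Points give the log2 H3 reads per kb of each Hox domain minus the median of all autosomal H3K27me3 peaks of the same list, with 95% counting intervals as bars. All 12 points lie above 0, between 0.05 and 0.15.

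The clusters also shared a base composition that the choice of genes did not use. GC made up 48.9% (HoxB) to 49.97% (HoxA) of the cluster sequence, against 41.9% over all autosomes. There were 20.9 (HoxB) to 29.9 (HoxA) CG dinucleotides per kb, against 8.51 over all autosomes. Sequence that the reference masks as repeats made up 13.4% (HoxA), 24.6% (HoxB), 15.9% (HoxC) and 14.4% (HoxD), against 33.5% over all autosomes. All 4 clusters were thus richer in CG and poorer in repeats than the autosomes as a whole.

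Distances from the clusters to peaks of the H3K9 marks are set beside those of all genes. The median autosomal gene lay 215 kb from the nearest H3K9me3 peak in the female, 529 kb in the Setdb1-depleted and 263 kb in the male list. The nearest H3K9me3 peak in the female list was 914 kb from HoxA, 2474 kb from HoxB, 733 kb from HoxC and 1510 kb from HoxD. In the Setdb1-depleted list it was 2267, 2469, 808 and 3225 kb away in the same order. In the male list it was 914 kb from HoxA and 568 kb from HoxC but 294 kb from HoxB, over B4galnt2, and 78.3 kb from HoxD. This HoxD peak, chr2:74580001-74590000, was 10 kb wide, the narrowest width that occurs, and lay within a male H3K27me3 peak. The study's methods report a subtle cross-reaction of the H3K9me3 antibody with H3K27me3, whose part in this peak was not tested.

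H3K9me2 peaks were fewer, and the median autosomal gene lay 953 kb from the nearest one in the female, 1290 kb in the Setdb1-depleted and 1011 kb in the male list. From the clusters the nearest was 1018 kb (HoxD) to 9332 kb (HoxB) away in the female list and 2092 kb (HoxA) to 4551 kb (HoxC) away in the male list. In the Setdb1-depleted list 2 peaks of 10 kb each lay 273 kb and 323 kb from HoxD on its posterior side, and the nearest to HoxC was 7826 kb away.

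Setdb1 peaks were absent from within 200 kb of every cluster in the female and Setdb1-depleted lists. The nearest in the female list lay 305 kb from HoxC, 569 kb from HoxA, 711 kb from HoxB and 975 kb from HoxD. In the Setdb1-depleted list, which holds 418 peaks against 1250 in the female list, the nearest was 3996 kb away (HoxA). The male list holds 3310 peaks, of which 1 lay inside a cluster and 2 more within 200 kb of one. The clusters with 200 kb on both sides make up 2.08 Mb, and the autosomes held 0.448 Setdb1 peaks per Mb in the female, 0.137 in the Setdb1-depleted and 1.26 in the male list. Of all genes, 18.3%, 6.33% and 41.1% had a Setdb1 peak within 200 kb in these lists. At such rates 0, 0 and 3 peaks near the clusters are not set apart from the autosomes.

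The male peak inside HoxB, chr11:96348439-96348602, lay between Hoxb3 and Hoxb2, 0.597 kb from Hoxb3 and within the noncoding gene Hoxb3os, under H3K27me3 in all 3 lists. Its pileup was 6 reads, its deposited fold enrichment 3.50 and its −log10 p 4.08. The median male Setdb1 peak had a pileup of 6 reads, a fold enrichment of 3.65 and a −log10 p of 5.11. Its q-value, worked out from the deposited −log10 q, was 0.746, so it would not pass a limit of 0.05, as 28.1% of male peaks would.

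The nearest male peak to HoxD, chr2:74621543-74621652, lay 46.7 kb past Hoxd13 and within H3K27me3 peaks of the female and male lists. Its pileup was 6 reads, its fold enrichment 4.15, its −log10 p 5.11 and its q-value 0.134. A further male peak 146 kb from HoxD, inside Lnpk, had a fold enrichment of 4.25 and a q-value of 0.134. None of the 3 passed 0.05. Both nearer peaks are shown as reference sequence (GRCm38.p6, plus strand), with the 21 bases around the summit in capitals, since they are the Setdb1 calls closest to Hox genes.
HoxB peak: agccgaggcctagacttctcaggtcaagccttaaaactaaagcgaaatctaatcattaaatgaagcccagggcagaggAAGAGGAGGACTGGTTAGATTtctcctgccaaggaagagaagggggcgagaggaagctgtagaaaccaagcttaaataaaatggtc
HoxD peak: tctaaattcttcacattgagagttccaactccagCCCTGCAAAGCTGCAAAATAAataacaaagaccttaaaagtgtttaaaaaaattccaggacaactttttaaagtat

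The HoxB sequence was 46.3% GC with 3 CG, and 28.0% of it was masked as repeats. The HoxD sequence was 31.8% GC with no CG, and 60.0% of it was masked. Setdb1 is known for silencing retroelements, but the repeat class of these stretches was not examined here.

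Genes related to the Hox genes were scored in the same way, without a test between their lists, beside the 13.8%, 11.9% and 12.8% of all autosomal genes given above. The ParaHox genes, sisters of the Hox genes that pattern the gut and neural tube, were covered over at least 50% of their span for 5 of 6 in every list. Cdx2 and Gsx1 were fully covered in each list, Cdx4, which lies on the X chromosome, was covered over 93.6% in the male list and fully in the others, and Cdx1 was covered over 35.4% in each. Of 9 related homeobox genes, 7, 7 and 8 were so covered in the female, Setdb1-depleted and male lists. En1 and En2, which pattern the midbrain, were fully covered in all lists. Meox1, a somite gene, was covered over 0%, 0% and 55.6%, and Meox2 over 16.1%, 0% and 16.1%, in the same order.

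The Hox cofactors, TALE homeobox proteins that bind DNA together with Hox proteins, had 0 of 8 genes covered over 50% in any list, a count that lies near these background shares. Meis3 was covered over 43.0% in each list, and Pknox2 over 14.6%, 45.8% and 22.4% in the female, Setdb1-depleted and male lists. Pbx2 was covered over 0% in each. All 8 noncoding genes of the clusters that were listed, Hotair, Hottip and 6 microRNA genes, were fully covered in all lists.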

How the data were processed

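ChIP-seq libraries of Setdb1, H3K9me2, H3K9me3, H3K27me3, H3 and whole cell extract from MEFs (43 samples, 18 groups) were analysed from 12 peak lists that the authors deposited. Reads were mapped with Bowtie2 to mm10 with strain variants masked. Histone lists were called by the authors on pooled libraries in Seqmonk v0.29.0 (10 kb fragments, p limit of 1e-05, H3 as control) and give positions only, plus log2 scaled H3 read numbers for the 3 pools. Per the file headers, Setdb1 lists came from MACS2 2.1.0.20140616 (p limit 0.001, larger library sampled down) and hold deposited pileup (signal), fold enrichment (a ratio), −log10 p and −log10 q values; the headers state 18134299, 14405821 and 12320583 reads used for the female, Setdb1-depleted and male lists.

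Gene spans were taken from GENCODE M21 (GRCm38) and the covered percentage of each span was computed in Python 3.11.15 with pandas 2.3.3, tested on simulated data. A gene was called covered at 50% of its span. A domain is the peak that overlaps the listed genes of a cluster, and neighbouring peaks were kept apart. Whole H3 reads were recovered by scaling to the female pool, and at least 99.9% of values came out whole within 0.05 reads. Since every list is pooled, no test was run. Members, lists and named genes (all 38 members, cluster neighbours, genes next to edges, up to 4 genes a related list) were chosen with earlier results of these data known. A gene of the cofactor list is not reported here.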

Additional observations from a re-analysis of the deposited data

How the results depend on the processing

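Of 156 values recomputed under other settings, 146 stayed within 1.5 times (counts), within 1 step of 5 kb (widths and covered shares) or within the counting interval (H3 density), among them all counts of covered Hox genes for all 3 histone marks, whether scored by any base, the whole span, the start or the coding part, with peaks at least 20 kb wide, with equal numbers of the widest peaks, or with peaks shortened by 5 kb. With peaks less than 10 kb apart joined, domain widths rose to 260 kb (HoxA, female), 185 kb (HoxA, Setdb1-depleted), 310 kb (HoxB, female), 305 kb (HoxB, male) and 220 kb (HoxD, male), since joined neighbours are added. With clusters extended by 20 kb on both sides, covered shares were 69.2% (HoxA, Setdb1-depleted), 71.1% (HoxA, male) and 93.6% (HoxC, Setdb1-depleted), since flanks are then scored. The 21 values for each H3K9 mark were counts of 0, which stricter settings could not change. Of the domain widths, 7 stayed and 5 moved. Male Setdb1 peaks, 2 within 50 kb of a cluster, numbered 1 inside a cluster and 0 at a q-value under 0.05. No paired analysis was possible because every list was called on pooled libraries, and for the same reason no replicate could be left out.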
